A study of Mus musculus with 9 samples.

Results

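The type I interferon-stimulated genes of sorted spleen dendritic cells (DCs) were described in bulk RNA sequencing of a mouse model of T-cell acute lymphoblastic leukemia (T-ALL). The list held 46 genes by name out of 54532 genes in the table, and all 46 were found in it. They are genes that type I interferon is known to switch on, and the rule that chose them uses no measured value. There were 3 groups of 3 samples. N-mDCs were the mature conventional DCs (cDCs) of healthy mice. T-mDCs were the mature cDCs of leukemic mice, and T-DCs were their CD11c+ MHCIIlo cells, with little MHC class II (MHCII) at the surface. For the leukemia, c-kit+ bone marrow cells of C57BL/6J mice were infected with a retrovirus carrying the intracellular part of Notch1 and GFP. GFP+ leukemia cells from such mice were passed into C57BL/6J or C57B6.SJL female mice that were not irradiated. Hosts that were not irradiated keep their own immune cells beside the leukemia. Spleens were taken late in the disease, red cells were lysed, and CD11c+ cells were enriched on beads before sorting. The labels do not say whether the 3 samples of a group came from separate mice or pools, so p-values measure only the spread between these samples, which may be technical.

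Type I interferons are secreted when a cell senses foreign or misplaced nucleic acid, and they bind a receptor made of IFNAR1 and IFNAR2. The kinases JAK1 and TYK2 then phosphorylate STAT proteins, which join IRF9 in the complex ISGF3 and bind the interferon-stimulated response element (ISRE) in promoters. The genes switched on make proteins that sense nucleic acid, block virus entry, copying and release, modify proteins with ISG15, and in turn restrain the signal. In DCs this response accompanies maturation and helps them to prime T cells, and plasmacytoid DCs (pDCs) are the cells best known for making the interferon.

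The DNA before the start sites of 5 members, all of which hold an ISRE match, is shown to give a picture of such promoters. Of these, Isg15 and Rsad2 were past the threshold in no comparison below. RefSeq (assembly GRCm38.p6, the same assembly as the mm10 build of the values) gave a promoter window of 250 bases before and 50 after the start for 35 of the 46 members. An ISRE was searched on both strands as GAAA, any 2 bases and again GAAA, with overlapping matches counted. It was found in 19 of the 41 windows of members (46.3%; 17 of 35 genes) and in 3.44% of all 32851 windows. Among members past the threshold in a comparison below, the windows of Cmpk2, Dtx3l, Epsti1 and Phf11d held no match. Those of Ifitm3, Oas1g and Slfn5, which are not shown, held at least 1. Zbp1, Mx1, Mx2 and Ifi27, also past the threshold, had no window and could not be searched. The interferon-gamma type element GAS, searched as TTCNNNGAA, was found in 17.1% of the members' windows and 8.3% of all windows. Its letters can overlap an ISRE match. A match of letters is a description and not a site shown to be bound. The 250 bases before the start follow, 5′ to 3′ on the gene's strand, with ISRE matches in capitals. They are chr4:156200819-156201068 (minus strand) for Isg15, chr19:34583279-34583528 (plus strand) for Ifit3, chr5:120777660-120777909 (minus strand) for Oas3, chr12:26456453-26456702 (minus strand) for Rsad2 and chr8:71537473-71537722 (minus strand) for Bst2.
Isg15: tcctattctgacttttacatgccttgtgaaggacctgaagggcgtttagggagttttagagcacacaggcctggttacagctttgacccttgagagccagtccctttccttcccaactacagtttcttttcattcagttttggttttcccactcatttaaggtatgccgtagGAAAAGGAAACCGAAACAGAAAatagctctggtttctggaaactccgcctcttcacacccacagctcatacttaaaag
Ifit3: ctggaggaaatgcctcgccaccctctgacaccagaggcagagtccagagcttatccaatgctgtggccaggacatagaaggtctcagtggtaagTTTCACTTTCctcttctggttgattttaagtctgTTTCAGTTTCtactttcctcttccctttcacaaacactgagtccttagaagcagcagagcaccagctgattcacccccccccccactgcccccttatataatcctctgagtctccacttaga
Oas3: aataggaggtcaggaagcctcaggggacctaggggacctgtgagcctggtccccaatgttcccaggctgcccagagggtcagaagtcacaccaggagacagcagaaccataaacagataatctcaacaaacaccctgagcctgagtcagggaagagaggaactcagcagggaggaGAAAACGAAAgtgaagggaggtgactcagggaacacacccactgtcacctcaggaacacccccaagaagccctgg
Rsad2: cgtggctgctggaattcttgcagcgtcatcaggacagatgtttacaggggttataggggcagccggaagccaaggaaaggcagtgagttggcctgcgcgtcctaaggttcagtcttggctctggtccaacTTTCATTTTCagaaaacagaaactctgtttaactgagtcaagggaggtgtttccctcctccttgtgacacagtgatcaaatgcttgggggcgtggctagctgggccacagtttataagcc
Bst2: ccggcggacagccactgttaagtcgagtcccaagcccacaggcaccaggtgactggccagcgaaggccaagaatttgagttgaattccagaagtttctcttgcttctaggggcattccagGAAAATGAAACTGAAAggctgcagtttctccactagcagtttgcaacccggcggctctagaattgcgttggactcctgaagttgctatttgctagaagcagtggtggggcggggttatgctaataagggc
In Ifit3 and Rsad2 the capitals read as the reverse complement of the searched letters. Isg15 had 3 overlapping matches, Bst2 had 2 overlapping matches and Ifit3 had 2 separate ones, with 1 each in Oas3 and Rsad2.

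Values were deposited as FPKM, reads scaled by gene length and by a size for each sample, which can be compared between genes. Between 15360815 and 18440913 reads per sample were counted on genes. The size behind the deposited values differed from that count. It was above the count in every T-mDC sample (18878243 against 17559243 in sample 1) and below it in every T-DC sample (15498648 against 16977553 in sample 2). In N-mDCs it went both ways. The voom fit below used the counts on genes instead. Before the results, 3 features of the libraries bear on them. T-DC samples 2 and 3 correlated at 0.961 across genes (Pearson, log2 scale) and with T-DC sample 1 at 0.836 and 0.809. The summed FPKM of 8 erythroid markers, all detected in every T-DC sample, was 602.7, 57937 and 41950.0 in T-DC samples 1 to 3, 99.4 to 5359 in N-mDCs and 14.5 to 179 in T-mDCs. That of 8 neutrophil markers was 8.59, 4327 and 1514 in T-DCs. T-mDC samples 2 and 3 correlated at 0.991 and differed by far less than other pairs, yet by more than counting noise (1.85 chi-square units per gene at 20 to 200 reads), so they were kept as separate samples. Of the markers of the labelled cell type, Itgax (CD11c) was detected in all 9 samples. It was at 152, 90.4 and 43.0 FPKM in T-DC samples 1 to 3 and at 158 to 230.2 in the other groups. Zbtb46, a transcription factor of cDCs, was at 1.84 to 3.42 FPKM in T-DCs and 10.7 to 23.5 in the other groups. Flt3 and Dpp4 were also lower in every T-DC sample than in every other sample. The sum of 5 MHCII genes was 654 to 2595 FPKM in T-DCs, 21203 to 30163 in N-mDCs and 13588 to 19533 in T-mDCs.

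The members were most uniform in the comparison of the mature cDCs, where T-mDC samples were below N-mDC samples for most of the list, and most variable within T-DCs. Values were tested as log2(FPKM + 1) with limma over the 12746 genes with at least 1 FPKM in 3 or more samples, with the Benjamini-Hochberg adjustment and a threshold of 0.05. Of the 46 members, 45 passed that filter. Ifi44, a cytoplasmic protein of the antiviral response, did not, with 0.720, 0.699 and 1.85 FPKM in N-mDCs. It had 0.310, 0.305 and 3.47 in T-DCs and 0.311, 0.498 and 0.488 in T-mDCs. In an F-test over the 3 groups 12 of 45 members (26.7%) were past the threshold, beside 18.0% of all genes tested. That count was 26 when T-DC sample 1 was left out, beside 5374 of all 12746 genes. It was 7 when either T-mDC sample 2 or 3 was left out, beside 1079 and 1072 of all genes.

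**Figure D1:**
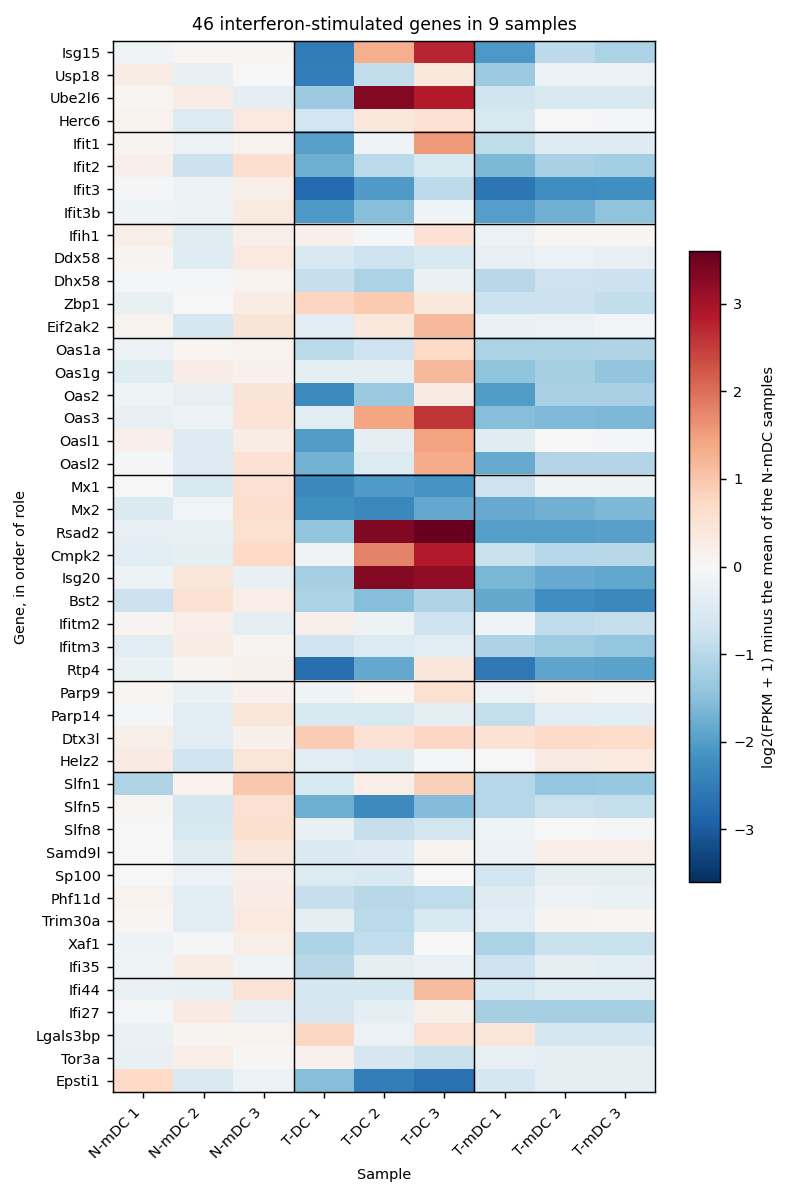
Colour gives log2(FPKM + 1) of each of the 46 genes (rows, in order of role, with lines between roles) in each of the 9 samples (columns), minus the mean of the 3 N-mDC samples. T-mDC columns are mostly blue, with medians of -0.86, -0.73 and -0.77 over the tested members, and the 3 T-DC columns differ from each other, with medians of -0.82, -0.49 and 0.20.

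Compared with N-mDCs, T-mDCs had lower levels of 5 members past the threshold and higher levels of none (limma). These were 11.1% of 45 members, beside 2.21% of all genes in either direction, 1.52% for lower and 0.69% for higher. The 5 were Ifit3, Mx2, Bst2, Ifitm3 and Ifi27. At an unadjusted p under 0.05 limma gave 1 higher and 18 lower members. No count over all genes was made at that threshold, so these numbers have no share to be set beside them. On the recovered reads limma voom gave 0 higher and 4 lower at the adjusted threshold. With voom 173 of all 12746 genes were called, 68 of them higher. All 3 T-mDC samples lay below all 3 N-mDC samples for 27 members (60.0%, beside 15.7% of all genes), and above them for 1, Dtx3l (2.22%, beside 19.3%). The log2 difference was below 0 for 42 of 45 members (beside 47.3% of all genes) and above 0 for 3 (beside 52.7%), with a median of -0.64 over the members and 0.03 over all genes. Fewer interferon-responding cells and less RNA per cell cannot be told apart in bulk samples.

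**Figure D2:**
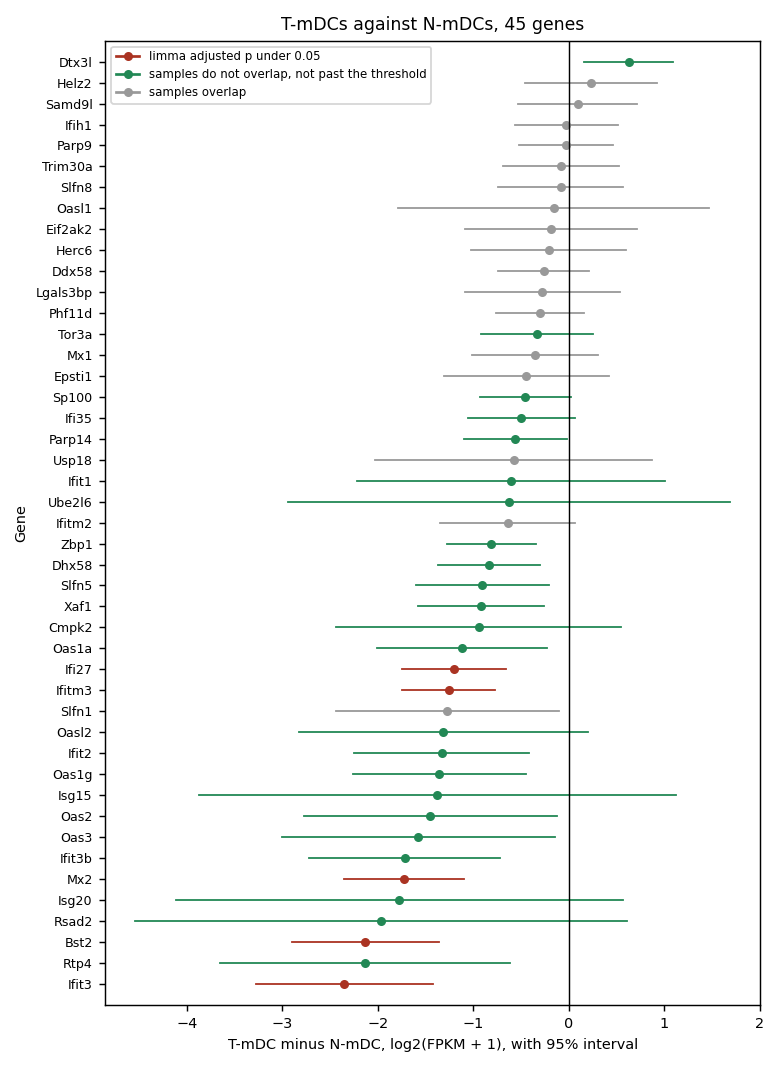
Points are the log2(FPKM + 1) differences of T-mDCs minus N-mDCs for the 45 tested genes, in order of size, and lines are 95% intervals from limma with 3 samples per group. Red marks the 5 genes past the threshold, green those whose samples did not overlap without passing it, and grey those whose samples overlapped; 42 points lie left of 0.

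The count of 5 rested on single libraries: it was 0 when N-mDC sample 2 or 3 or T-mDC sample 2 or 3 was left out. Of all 12746 genes 47, 55, 25 and 23 were then called, against 282 in the full fit. Whether the similar T-mDC samples 2 and 3 are independent is not known, and averaging them also gave 0, beside 23 of all genes. The count was 3 without N-mDC sample 1, T-DC sample 2 or T-mDC sample 1 (beside 219, 193 and 299). It was 11 without T-DC sample 1 or 3, which enter through the shared estimate of spread (beside 1022 and 282). Markers of other cells moved with this comparison. The sum of 7 pDC markers was 220 to 379 FPKM in N-mDCs and 78.5 to 157 in T-mDCs, and none of the 7 was at 0 in any sample of these groups. Siglech, their best known marker, was at 31.2, 50.2 and 69.3 against 14.1, 1.80 and 1.49. Ly6d, Cox6a2, Klk1 and Pacsin1 were also lower without overlap. Tcf4 overlapped, as did Spib, at 58.7, 50.8 and 62.0 against 57.6, 63.2 and 63.1. Spib made up most of the sum in T-mDC samples 2 and 3. The sum of 5 NK cell markers was 124 to 169 FPKM in N-mDCs and 22.4 to 33.6 in T-mDCs, with none at 0. Sums for B cells (207 to 283 against 49.4 to 180 FPKM), monocytes (243 to 424 against 74.2 to 227), red pulp macrophages (1954 to 3972 against 436 to 1572) and neutrophils (56.6 to 663 against 3.63 to 15.6) were also higher in N-mDCs without overlap. Marker sums of the cDC subsets cDC1 and cDC2 were also taken. The sum of 5 cDC2 markers was 371 to 404 FPKM in N-mDCs and 216 to 299 in T-mDCs, though Sirpa and Clec4a4 among them overlapped. The sum of 6 cDC1 markers was 203 to 299 FPKM in N-mDCs and 272 to 424 in T-mDCs, with overlap. The part of any of these cells or subsets in the result was not tested.

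Compared with N-mDCs, T-DCs had lower levels of 7 members (Ifit3, Mx1, Mx2, Bst2, Slfn5, Phf11d and Epsti1) and higher levels of 2 (Zbp1 and Dtx3l). These 9 were 20% of the 45 members, beside 16.4% of all genes. By direction they were 15.6% against 10.3% for lower and 4.44% against 6.1% for higher. Samples did not overlap for 11 members that were lower (24.4%, beside 16.4%) and 2 that were higher (4.44%, beside 16.0%). The log2 difference was below 0 for 30 members (beside 46.6% of all genes) and above 0 for 15 (beside 53.4%). Its median was -0.33 over the members and 0.05 over all genes. Without T-DC sample 1 the counts were 8 lower and 8 higher. In that fit 5030 of all 12746 genes were called, 2611 of them higher, against 2096 called in the full fit. Without T-DC samples 2 and 3, an alternative chosen after seeing the data, the median over the members was -0.82. That fit assumes the lone T-DC sample to vary like the other groups. The lower count was 4 when sample N-mDC 3 or T-DC 2 was left out and 11 without T-DC sample 3. Of all genes 1041, 1019 and 1147 were called in either direction in these 3 fits. The higher count was 1 without T-DC sample 3 and 0 without any other single sample except T-DC sample 1. In those fits 219 to 628 of all genes were called higher.

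Compared with T-mDCs of the same disease, T-DCs had higher levels of 5 members (Zbp1, Oas1g, Oas3, Cmpk2 and Ifi27) and lower levels of 2 (Mx1 and Epsti1). The 7 were 15.6% of the members, beside 14.2% of all genes . By direction they were 11.1% against 5.44% for higher and 4.44% against 8.79% for lower. Samples did not overlap for 11 members that were higher (24.4%, beside 16.8%) and 8 that were lower (17.8%, beside 18.1%). The log2 difference was above 0 for 31 members, beside 55.3% of all genes. Its median was 0.28 over the members and 0.07 over all genes, and it was -0.003 without T-DC sample 3 and -0.22 without T-DC samples 2 and 3. The higher count was 13 without T-DC sample 1, beside 2338 of all 12746 genes. It was 1 without T-DC sample 2 or T-mDC sample 2 or 3, beside 185, 82 and 86 of all genes. It was 2 without T-mDC sample 1 (beside 723) and 3 without T-DC sample 3 or N-mDC sample 3 (beside 385 and 429). The lower count was 4 without N-mDC sample 2, beside 1679 genes called in either direction. It was 1 without T-DC sample 2 or 3 or T-mDC sample 2 or 3, beside 825, 1074, 543 and 541 such genes. With the erythroid covariate 0 of all genes were called in this comparison, so a call lost under it is not particular to a member. The comparisons share samples, so each is described by its own values.

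**Figure D3:**
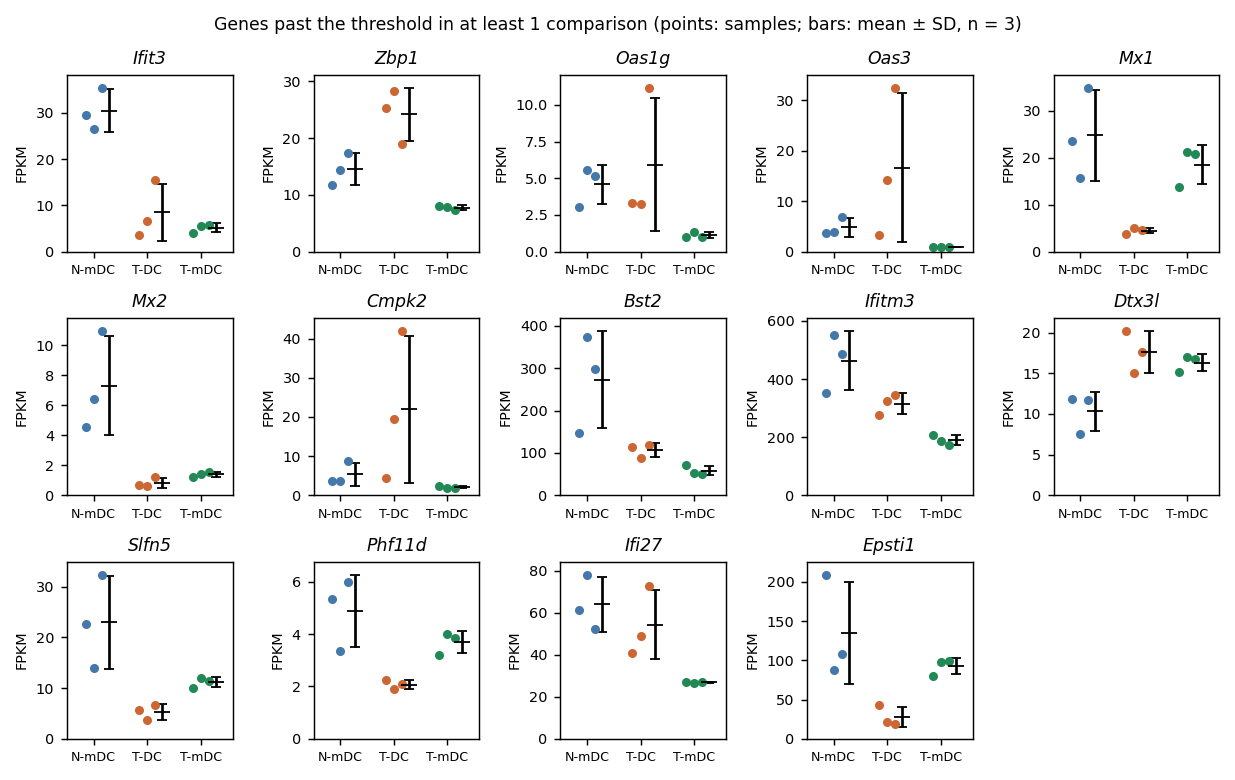
FPKM of the 14 genes past the threshold in at least 1 comparison, with a linear axis from 0 in each panel. Points are the 3 samples of each group and bars are mean ± SD (n = 3). Mx1, Mx2, Slfn5 and Epsti1 in T-DCs lie below every N-mDC sample, and Ifit3, Bst2, Ifitm3 and Ifi27 in T-mDCs do so too.

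ISG15 is a ubiquitin-like protein that is attached to other proteins by the conjugating enzyme UBE2L6 and, in mice, the ligase HERC6, and removed by USP18, which also restrains signalling at IFNAR2. None of these 4 genes was past the threshold in any comparison. Isg15 (chr4:156199424-156200818, minus strand) had 65.7, 77.0 and 77.0 FPKM in N-mDCs. It had 12.0, 184 and 491 in T-DCs and 16.8, 37.5 and 32.9 in T-mDCs. The T-mDC samples lay below all N-mDC samples, whereas T-DCs held both the lowest and the highest values of the 9 samples. The log2 difference of T-mDCs from N-mDCs was -1.38 with a 95% interval from -3.88 to 1.12 (limma adjusted p = 0.572), and that of T-DCs from N-mDCs was 0.51 with an interval from -1.99 to 3.02. Ube2l6 ranged from 22.2 to 34.7 FPKM in N-mDCs, 10.9 to 291 in T-DCs, with 16.9 to 18.9 in T-mDCs. Usp18 ranged from 12.8 to 18.9, 1.96 to 20.4 and 5.64 to 13.4 in the same order, and Herc6 stayed at or below 4.57 FPKM throughout. The samples of T-mDCs and N-mDCs overlapped for Usp18 and Herc6 and did not for Ube2l6.

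IFIT proteins bind viral RNA that lacks the host's cap marks, and their genes lie side by side on chromosome 19. Of the 4, Ifit3 was lower in both groups from leukemic mice than in N-mDCs. Ifit3 (chr19:34583531-34588731, plus strand) had 29.5, 26.4 and 35.4 FPKM in N-mDCs. It had 3.52, 6.54 and 15.4 in T-DCs and 4.13, 5.60 and 5.80 in T-mDCs. Every sample from a leukemic mouse was below every N-mDC sample, with T-DC sample 3 the highest of them. The mean FPKM of N-mDCs was 5.89 times that of T-mDCs (log2 difference -2.35 ± 0.41 (SE), limma adjusted p = 0.0267) and 3.59 times that of T-DCs (log2 difference -1.92 ± 0.41 (SE), limma adjusted p = 0.0162). The call against T-mDCs passed under 14 of 23 alternatives. The call was not made when sample N-mDC 1, 2 or 3, or T-mDC 1, 2 or 3 was left out (log2 differences from -2.44 to -2.22), or with no filter, with T-mDC samples 2 and 3 averaged or with the erythroid covariate (log2 differences from -2.41 to -2.07). That against T-DCs passed under 20 of 23 alternatives, and was lost when sample N-mDC 1 or 3, or T-DC 2 was left out (log2 differences from -1.94 to -1.81). Ifit1, Ifit2 and Ifit3b were not past the threshold, with log2 differences of T-mDCs from N-mDCs of -0.61, -1.33 and -1.72 and no overlap of samples. Ifit3 and Ifit3b share 41.1% and 35.7% of their 75-base windows, so the split of reads between them is uncertain, and Ifit3b ranged from 4.16 to 6.47 FPKM in N-mDCs and from 0.503 to 1.14 in T-mDCs.

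Among the sensors of nucleic acid, Zbp1, whose protein binds left-handed nucleic acid and can start necroptosis, was higher in T-DCs than in both other groups. Zbp1 (chr2:173206612-173218923, minus strand) had 11.7, 14.4 and 17.4 FPKM in N-mDCs. It had 25.3, 28.2 and 19.0 in T-DCs and 8.04, 7.89 and 7.29 in T-mDCs, and the 3 groups did not overlap. T-DC mean FPKM was 3.12 times that of T-mDCs (log2 difference 1.51 ± 0.20 (SE), limma adjusted p = 0.00307). That call passed under 22 of 23 alternatives and not with the erythroid covariate (log2 difference 1.48), under which 0 of all genes were called. Against N-mDCs it was 1.67 times as high (log2 difference 0.70 ± 0.20 (SE), limma adjusted p = 0.0487). That call passed under 5 of 23 alternatives, but not when sample N-mDC 1, 2 or 3, or T-DC 2, or T-mDC 1, 2 or 3 was left out (log2 differences from 0.56 to 0.83). It was also lost with a pseudocount of 0.1, with no filter, as TPM, with median-of-ratios scaling, with quantile normalization, with only the groups compared, with voom, with T-mDC samples 2 and 3 averaged, with the erythroid covariate or without T-DC samples 2 and 3 (log2 differences from 0.53 to 0.78). The replicate block lost this call as well. None of the cytoplasmic RNA helicases was past the threshold. Ifih1 (MDA5) had means of 8.16 ± 2.22 FPKM (SD, n = 3) in N-mDCs, 9.64 ± 2.12 in T-DCs and 7.84 ± 0.934 in T-mDCs, and its samples overlapped in all comparisons. Ddx58 (RIG-I) ranged from 5.27 to 6.15 FPKM in T-DCs, below all samples of N-mDCs (6.75 to 12.4) and T-mDCs (7.54 to 8.15), though not past the threshold (limma adjusted p = 0.0746 and 0.291). Dhx58 (LGP2), which tunes the other helicases, ranged from 19.8 to 22.7 FPKM in N-mDCs, 8.97 to 17.5 in T-DCs, with 9.83 to 12.2 in T-mDCs, and both groups from leukemic mice lay below all N-mDC samples. Eif2ak2 (PKR), a kinase that stops translation on binding double-stranded RNA, ranged from 5.17 to 17.2 FPKM in T-DCs and overlapped in all comparisons.

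OAS proteins make short oligoadenylates on double-stranded RNA, a signal for the breakdown of RNA in the cell. Oas1g and Oas3 were higher in T-DCs than in T-mDCs and no member of the family was past the threshold in the other comparisons. Oas3 (chr5:120753098-120777661, minus strand) had 3.70, 3.83 and 6.91 FPKM in N-mDCs. It had 3.25, 14.2 and 32.5 in T-DCs and 0.944, 0.893 and 0.846 in T-mDCs. T-DC mean FPKM was 18.6 times that of T-mDCs (log2 difference 2.77 ± 0.63 (SE), limma adjusted p = 0.0227), with T-DC sample 1 lowest of the 3 and still above all T-mDC samples. This call passed under 15 of 23 alternatives. The call was not made when sample T-DC 2, or T-mDC 2 or 3 was left out (log2 differences from 2.66 to 2.77). Further losses were seen with no filter, with only the groups compared, with T-mDC samples 2 and 3 averaged, with the erythroid covariate and without T-DC samples 2 and 3 (log2 differences from 0.95 to 2.77). Oas3 had a log2 difference of 0.95 with the erythroid covariate and 1.16 without T-DC samples 2 and 3. Oas1g (chr5:120876142-120887613, minus strand) had 3.03, 5.57 and 5.13 FPKM in N-mDCs. It had 3.34, 3.25 and 11.2 in T-DCs and 1.02, 1.37 and 1.02 in T-mDCs (log2 difference 1.51 ± 0.40 (SE), limma adjusted p = 0.0381, T-DCs against T-mDCs). This call passed under 11 of 23 alternatives, and was lost when sample N-mDC 2 or 3, or T-DC 2, or T-mDC 1, 2 or 3 was left out (log2 differences from 1.47 to 1.77). It was also lost with no filter, with only the groups compared, with voom, with T-mDC samples 2 and 3 averaged, with the erythroid covariate or without T-DC samples 2 and 3 (log2 differences from 0.74 to 1.94). Oas1g had a log2 difference of 0.98 with array weights and 0.74 with the erythroid covariate. Oas1a had the highest mean of the family, with 25.7, 31.6 and 33.0 FPKM in N-mDCs. It had 14.9, 17.5 and 50.3 in T-DCs and 13.1, 13.3 and 13.5 in T-mDCs. Oas1a and Oas1g share 47.6% and 36.9% of their 75-base windows, so their reads may be divided between them unevenly. T-mDC samples were below all N-mDC samples for Oas1a, Oas1g, Oas2, Oas3 and Oasl2, with log2 differences from -1.57 to -1.11, and they overlapped for Oasl1, whose protein limits translation of Irf7. Oasl1 and Oasl2 reached 22.6 and 21.8 FPKM in T-DC sample 3, and Oas2 ranged from 2.10 to 17.3 in T-DCs.

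The MX proteins are dynamin-like GTPases that trap virus particles, and Mx1 of C57BL/6 mice encodes a truncated, inactive protein. Both genes were low in T-DCs in every sample. Mx1 (chr16:97447035-97462907, minus strand) had 23.6, 15.7 and 34.9 FPKM in N-mDCs. It had 3.87, 4.96 and 4.65 in T-DCs and 13.8, 21.1 and 20.7 in T-mDCs, with no T-DC sample overlapping another group. N-mDC mean FPKM was 5.5 times that of T-DCs (log2 difference -2.16 ± 0.29 (SE), limma adjusted p = 0.00266) and T-mDC mean FPKM 4.13 times (log2 difference -1.81 ± 0.29 (SE), limma adjusted p = 0.00582). The call against N-mDCs passed under all 23 alternatives in which it could be computed. The call against T-mDCs passed under 21 of 23 alternatives and not with the erythroid covariate or without T-DC samples 2 and 3 (log2 differences from -1.98 to -1.58). T-mDCs and N-mDCs overlapped for Mx1. Mx2 (chr16:97535308-97560900, plus strand) had 4.53, 6.43 and 10.9 FPKM in N-mDCs. It had 0.711, 0.589 and 1.19 in T-DCs and 1.23, 1.39 and 1.55 in T-mDCs, so it was low in both groups from leukemic mice. Its log2 difference from N-mDCs was -2.12 ± 0.28 (SE) in T-DCs (limma adjusted p = 0.00228) and -1.72 ± 0.28 in T-mDCs (limma adjusted p = 0.0213). The first passed under all 22 alternatives in which it could be computed. The second passed under 16 of 22 alternatives, but not when sample N-mDC 2 or 3, or T-mDC 2 or 3 was left out (log2 differences from -1.77 to -1.43), or as TPM or with T-mDC samples 2 and 3 averaged (log2 differences from -1.87 to -1.75).

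BST2 (tetherin) holds budding virus particles at the cell surface and is also a surface marker of mouse pDCs. Bst2 (chr8:71534255-71537456, minus strand) had 148, 373 and 298 FPKM in N-mDCs. It had 115, 87.2 and 119 in T-DCs and 70.9, 53.1 and 50.1 in T-mDCs, and the 3 groups did not overlap. It was lower in T-mDCs (log2 difference -2.13 ± 0.34 (SE), limma adjusted p = 0.0201) and in T-DCs (log2 difference -1.26 ± 0.34 (SE), limma adjusted p = 0.0372) than in N-mDCs. The first call passed under 17 of 23 alternatives. The call was not made when sample N-mDC 2 or 3, or T-mDC 2 or 3 was left out (log2 differences from -2.08 to -1.86), or with T-mDC samples 2 and 3 averaged (log2 difference -2.06). The replicate block lost this call as well. The second passed under 11 of 23 alternatives, and was lost when sample N-mDC 2 or 3, or T-DC 2 or 3, or T-mDC 2 or 3 was left out (log2 differences from -1.34 to -0.98). Further losses were seen with no filter, with only the groups compared, with T-mDC samples 2 and 3 averaged, with the erythroid covariate and without T-DC samples 2 and 3 (log2 differences from -1.58 to -1.15). The replicate block lost this second call as well. The sum of pDC markers was also higher in N-mDCs, at 55.1 to 125 FPKM in T-DCs and as given above in the other groups, and its part was not tested. IFITM proteins sit in membranes and block virus fusion. Ifitm3 (chr7:141009586-141010770, minus strand), the most abundant member of the list, had 350.4, 549.9 and 487 FPKM in N-mDCs. It had 275, 324 and 346 in T-DCs and 209, 186 and 174 in T-mDCs, again with no overlap between groups. It was past the threshold only between T-mDCs and N-mDCs (log2 difference -1.26 ± 0.22 (SE), limma adjusted p = 0.0261). That call passed under 14 of 23 alternatives, but not when sample N-mDC 2 or 3, or T-DC 2, or T-mDC 2 or 3 was left out (log2 differences from -1.26 to -1.12), or with no filter, as TPM or with T-mDC samples 2 and 3 averaged (log2 differences from -1.26 to -1.04). The replicate block lost it as well. Ifitm2, which shares 42.0% of its windows with other annotated genes, ranged from 142 to 213 FPKM in N-mDCs, 107 to 206 in T-DCs, with 95.03 to 161 in T-mDCs. Rtp4, a chaperone of membrane receptors, ranged from 21.4 to 28.3 FPKM in N-mDCs, 3.06 to 34.4 in T-DCs, with 3.46 to 6.12 in T-mDCs, with a log2 difference of -2.13 between T-mDCs and N-mDCs (limma adjusted p = 0.155).

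Rsad2 and Cmpk2 are neighbours on chromosome 12, and their proteins, viperin and a mitochondrial nucleotide kinase, act in turn to make a nucleotide that ends viral RNA chains. Cmpk2 (chr12:26469204-26479837, plus strand) had 3.53, 3.69 and 8.69 FPKM in N-mDCs. It had 4.45, 19.4 and 41.9 in T-DCs and 2.42, 1.88 and 1.93 in T-mDCs. It was higher in T-DCs than in T-mDCs (log2 difference 2.46 ± 0.65 (SE), limma adjusted p = 0.0398). That call passed under 9 of 23 alternatives. The call was not made when sample N-mDC 1, 2 or 3, or T-DC 2 or 3, or T-mDC 1, 2 or 3 was left out (log2 differences from 1.78 to 2.54). Further losses were seen with no filter, with only the groups compared, with voom, with T-mDC samples 2 and 3 averaged, with the erythroid covariate and without T-DC samples 2 and 3 (log2 differences from 0.58 to 2.74). Cmpk2 had a log2 difference of 0.58 with the erythroid covariate and 0.83 without T-DC samples 2 and 3. Rsad2 (chr12:26442746-26456452, minus strand), given sample by sample after its values were seen, had 9.68, 9.90 and 17.9 FPKM in N-mDCs. It had 3.84, 131 and 154 in T-DCs and 2.31, 2.29 and 2.37 in T-mDCs. The T-mDC samples lay below all others and T-DC samples 2 and 3 far above them. With that spread the difference of T-DCs from T-mDCs, 3.80 ± 1.13 (SE) on the log2 scale, was not past the threshold (limma adjusted p = 0.0571). Isg20, an RNA exonuclease, was also given sample by sample after its values were seen, with 13.2, 20.8 and 12.4 FPKM in N-mDCs. It had 6.06, 159 and 146 in T-DCs and 4.16, 3.62 and 3.36 in T-mDCs. Its difference of T-DCs from T-mDCs was 3.55 ± 1.03 on the log2 scale (limma adjusted p = 0.0522).

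PARP9 and DTX3L form a complex that joins ADP-ribose and ubiquitin to targets, and their genes start head to head on chromosome 16. Dtx3l (chr16:35926511-35939151, minus strand) had 11.8, 7.56 and 11.7 FPKM in N-mDCs. It had 20.2, 14.98 and 17.6 in T-DCs and 15.1, 17.0 and 16.7 in T-mDCs. Every sample from a leukemic mouse was above every N-mDC sample, which held for no other member. T-DCs were past the threshold (log2 difference 0.73 ± 0.20 (SE), limma adjusted p = 0.0439). That call passed under 7 of 23 alternatives, and was lost when sample N-mDC 1, 2 or 3, or T-DC 2 or 3, or T-mDC 1, 2 or 3 was left out (log2 differences from 0.54 to 0.83). It was also lost with no filter, as TPM, with quantile normalization, with only the groups compared, with voom, with T-mDC samples 2 and 3 averaged or without T-DC samples 2 and 3 (log2 differences from 0.58 to 0.92). The replicate block lost this call as well. Dtx3l had a log2 difference of 0.38 with array weights. For T-mDCs the difference missed the threshold (log2 difference 0.63, limma adjusted p = 0.168). Parp9 had 16.9, 13.5 and 18.0 FPKM in N-mDCs. It had 14.6, 16.8 and 23.9 in T-DCs and 13.8, 17.1 and 16.4 in T-mDCs, and its groups overlapped. The 2 genes overlap by 682 bases on opposite strands, and whether counting used strand is not given in the sources used here, so some reads may belong to either gene. Parp14, another ADP-ribosyltransferase, ranged from 13.3 to 24.1 FPKM in N-mDCs, 11.5 to 13.6 in T-DCs, with 9.21 to 12.9 in T-mDCs. Helz2, a helicase that acts as a nuclear coactivator, ranged from 8.97 to 21.1, 10.6 to 15.1 and 15.8 to 19.8 in that order, and neither was past the threshold.

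Schlafen proteins restrain cell growth and viral RNA, and SAMD9L is another interferon-induced antiviral protein. Slfn5 was lower in T-DCs compared with N-mDCs. Slfn5 (chr11:82951349-82964840, plus strand) had 22.6, 13.9 and 32.3 FPKM in N-mDCs. It had 5.72, 3.64 and 6.68 in T-DCs and 10.1, 11.9 and 11.4 in T-mDCs, with no overlap between any groups. N-mDC mean FPKM was 4.29 times that of T-DCs (log2 difference -1.87 ± 0.31 (SE), limma adjusted p = 0.00604). That call passed under 21 of 23 alternatives and not with the erythroid covariate or without T-DC samples 2 and 3 (log2 differences from -1.76 to -1.54). Slfn1 ranged from 2.54 to 13.7 FPKM in N-mDCs, 4.01 to 12.5 in T-DCs, with 1.83 to 2.64 in T-mDCs. Slfn8 ranged from 6.67 to 16.2, 5.42 to 8.45 and 9.24 to 10.2 in that order. Samd9l had 17.3, 12.5 and 23.2 FPKM in N-mDCs. It had 11.7, 12.3 and 18.8 in T-DCs and 14.7, 20.5 and 20.5 in T-mDCs, and its samples overlapped in all comparisons.

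Of the nuclear and regulatory proteins, Phf11d, a PHD finger gene, was lower in T-DCs compared with N-mDCs. Phf11d (chr14:59347407-59365470, minus strand) had 5.36, 3.34 and 5.97 FPKM in N-mDCs. It had 2.23, 1.89 and 2.08 in T-DCs and 3.21, 4.003 and 3.86 in T-mDCs (log2 difference -0.91 ± 0.20 (SE), limma adjusted p = 0.0193). Its call passed under 15 of 22 alternatives, but not when sample N-mDC 1 or 3, or T-DC 2 or 3 was left out (log2 differences from -0.92 to -0.78), or with only the groups compared, with the erythroid covariate or without T-DC samples 2 and 3 (log2 differences from -0.91 to -0.66). Ifi35, which binds the interferon-induced protein NMI, had 34.4, 45.9 and 35.0 FPKM in N-mDCs. It had 18.5, 30.0 and 32.1 in T-DCs and 22.3, 29.7 and 28.7 in T-mDCs. Both leukemic groups lay below all N-mDC samples for Ifi35 though not past the threshold (limma adjusted p = 0.161 and 0.35). Sp100, a component of nuclear bodies, ranged from 22.1 to 29.6 FPKM in N-mDCs, 17.1 to 25.1 in T-DCs, with 15.4 to 20.4 in T-mDCs. Xaf1, which promotes cell death, ranged from 5.05 to 6.99, 2.17 to 5.94 and 2.09 to 2.92, and Trim30a, which restrains NF-kappaB signalling, from 24.2 to 42.2, 16.1 to 25.8 and 24.6 to 34.8 in the same order.

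Epsti1, an interferon-induced gene first described in stroma around epithelial tumors, was lower in T-DCs than in both other groups. Epsti1 (chr14:77904239-78002657, plus strand) had 209, 87.7 and 108 FPKM in N-mDCs. It had 42.6, 21.7 and 18.8 in T-DCs and 80.4, 98.2 and 99.0 in T-mDCs, and T-DCs overlapped neither of the other groups. N-mDC mean FPKM was 4.87 times that of T-DCs (log2 difference -2.23 ± 0.38 (SE), limma adjusted p = 0.00709) and T-mDC mean FPKM 3.34 times (log2 difference -1.79 ± 0.38 (SE), limma adjusted p = 0.0187). The first call passed under 22 of 23 alternatives and not without T-DC samples 2 and 3 (log2 difference -1.54). Epsti1 had a log2 difference of -1.36 with the erythroid covariate. The second passed under 16 of 23 alternatives. The call was not made when sample T-DC 2 or 3, or T-mDC 2 or 3 was left out (log2 differences from -1.74 to -1.57), or with T-mDC samples 2 and 3 averaged, with the erythroid covariate or without T-DC samples 2 and 3 (log2 differences from -1.74 to -0.43). Epsti1 had a log2 difference of -0.43 with the erythroid covariate and -1.10 without T-DC samples 2 and 3. Ifi27 (chr12:103434211-103440239, plus strand) had 61.5, 78.2 and 52.6 FPKM in N-mDCs. It had 41.0, 49.1 and 72.8 in T-DCs and 27.2, 26.8 and 26.8 in T-mDCs, where the 3 samples had an SD of 0.235 FPKM and lay below all others. It was lower in T-mDCs than in N-mDCs (log2 difference -1.20 ± 0.24 (SE), limma adjusted p = 0.0448) and higher in T-DCs than in T-mDCs (log2 difference 0.94 ± 0.24 (SE), limma adjusted p = 0.0344). The first call passed under 8 of 23 alternatives, and was lost when sample N-mDC 1, 2 or 3, or T-DC 2, or T-mDC 1, 2 or 3 was left out (log2 differences from -1.33 to -1.05). Further losses were seen with a pseudocount of 0.1, with no filter, with the stricter filter, as TPM, with voom, with T-mDC samples 2 and 3 averaged and with the erythroid covariate (log2 differences from -1.23 to -0.997). The replicate block lost this first call as well. The second passed under 8 of 23 alternatives, but not when sample N-mDC 1, or T-DC 2 or 3, or T-mDC 1, 2 or 3 was left out (log2 differences from 0.72 to 0.99). It was also lost with no filter, as TPM, with quantile normalization, with only the groups compared, with voom, with T-mDC samples 2 and 3 averaged, with the erythroid covariate or without T-DC samples 2 and 3 (log2 differences from 0.37 to 0.94). The replicate block lost this call as well. Ifi27 had a log2 difference of 0.37 with the erythroid covariate and 0.59 without T-DC samples 2 and 3. Lgals3bp, a secreted glycoprotein that binds galectins, had 69.4, 88.7 and 89.9 FPKM in N-mDCs. It had 139, 71.0 and 120.4 in T-DCs and 112, 52.2 and 52.2 in T-mDCs. Tor3a, a torsin ATPase, ranged from 15.5 to 22.4, 10.3 to 21.0 and 14.4 to 15.2 in that order, and neither was past the threshold.

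Within T-DCs most members were lowest in sample 1 and highest in sample 3. The lowest of the 3 T-DC values was in sample 1 for 26 of 45 members (57.8%, beside 38.7% of all genes), and the highest was in sample 3 for 33 (73.3%, beside 33.5%). Sample 1 lay below all N-mDC samples for 31 members (68.9%, beside 30.1%), and sample 3 lay above them for 20 (44.4%, beside 39.2%). Rsad2 in T-DC sample 3 was 40.2 times its value in sample 1, Isg15 40.8 times, Isg20 24.1 times and Ube2l6 19.7 times. T-DC sample 2 was 7.32, 7.65 and 8.38 times the highest N-mDC sample for Rsad2, Isg20 and Ube2l6. Mx1 differed 1.20-fold between T-DC samples 3 and 1, and Bst2 1.04-fold. Erythroid and neutrophil marker sums were also high in samples 2 and 3 and low in sample 1, and the sum of 7 red pulp macrophage markers ran the other way, at 3246, 1041 and 606 FPKM. N-mDC sample 2, whose erythroid sum was the highest outside T-DCs at 5359 FPKM, had 9.90 FPKM of Rsad2, 20.8 of Isg20 and 34.7 of Ube2l6. The values of Isg20 and Ube2l6 were the highest of the 3 N-mDC samples, and that of Rsad2 was between the others. The part of these cells in the spread was not tested.

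**Figure D4:**
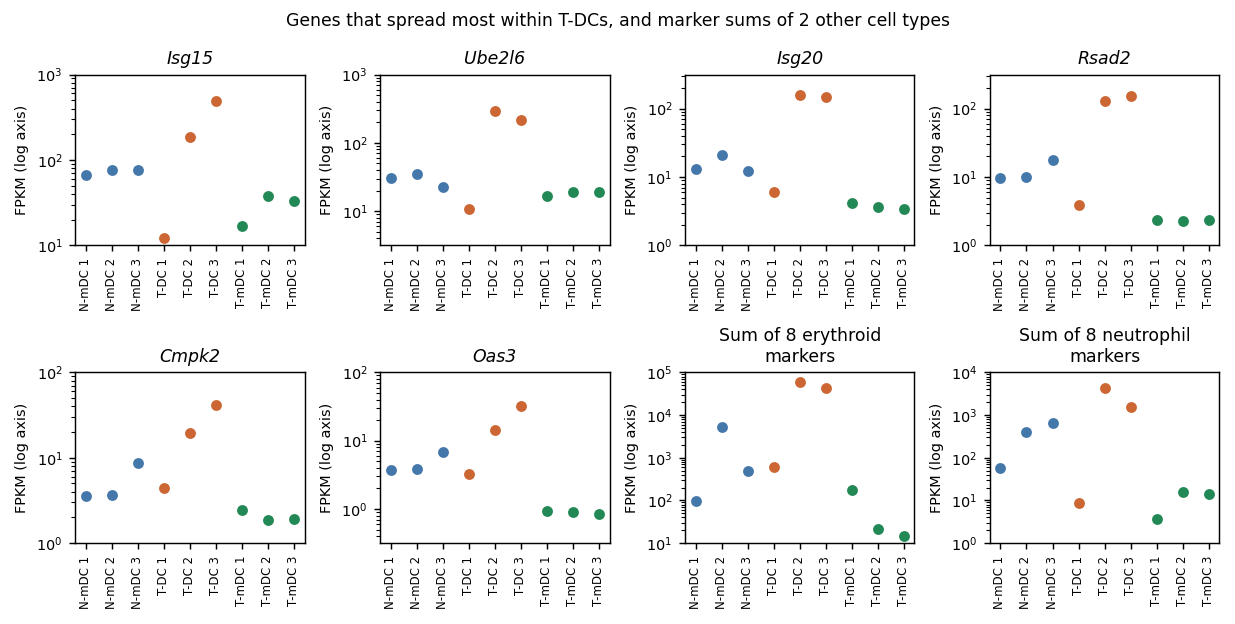
FPKM on a log axis in each of the 9 samples for 6 genes with a wide spread within T-DCs, chosen after their values were seen, and for the sums of 8 erythroid and 8 neutrophil markers. T-DC samples 2 and 3 are above T-DC sample 1 in every panel, from 3.25 to 14.2 and 32.5 FPKM for Oas3 and from 12.0 to 184 and 491 FPKM for Isg15.

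The genes that act above the members were taken from lists of 56 genes, from the interferons to the negative regulators of their signal, of which 34 could be tested. In T-DCs against N-mDCs 3 were higher and 6 lower (8.82% and 17.6%, beside 6.1% and 10.3% of all genes). Against T-mDCs 1 was higher and 8 were lower (2.94% and 23.5%, beside 5.44% and 8.79%). In T-mDCs against N-mDCs 2 were higher and none lower (5.88%, beside 0.69%). Transcripts of the type I interferons were at or near 0. Of 21 interferon genes none passed the filter and 15 were listed at 0 in all samples. None of the 18 type I genes held more than 5 reads in any sample, and a count of 0 allows up to 3 reads. Ifnb1 was at 0.166 FPKM in N-mDC sample 2 and at 0 in the other 8 samples. Ifng, the type II interferon made by NK and T cells, had 0.543, 4.32 and 4.17 FPKM in N-mDCs and at most 0.897 in T-DCs and 0.168 in T-mDCs, beside NK marker sums of 124 to 169, 3.79 to 18.3 and 22.4 to 33.6 FPKM.

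The receptor chains were expressed in every sample. Ifnar1 had 28.5, 18.8 and 31.1 FPKM in N-mDCs. It had 22.2, 15.2 and 12.1 in T-DCs and 20.6, 21.1 and 23.1 in T-mDCs. Ifnar2 had 30.7, 34.0 and 39.8 FPKM in N-mDCs. It had 43.7, 30.5 and 25.8 in T-DCs and 22.8, 22.5 and 20.4 in T-mDCs. T-mDC samples were below all others for Ifnar2 and the groups overlapped for Ifnar1. Neither was past the threshold in any comparison. Of 6 receptor genes the interferon-lambda chain Ifnlr1 alone was called, with 4.598, 2.55 and 2.67 FPKM in T-mDCs against 0.688, 0.386 and 0.738 in N-mDCs (log2 difference 1.39 ± 0.23 (SE), limma adjusted p = 0.0232) and 0.948, 1.33 and 0.677 in T-DCs (log2 difference -1.09 ± 0.23 (SE), limma adjusted p = 0.018). Below the receptor, Stat2 and Jak2 were lower in T-DCs compared with N-mDCs. Stat2 had 23.6, 22.4 and 35.0 FPKM in N-mDCs. It had 10.7, 12.6 and 15.4 in T-DCs and 12.1, 18.6 and 19.4 in T-mDCs, with T-DCs below all N-mDC samples (log2 difference -0.997 ± 0.25 (SE), limma adjusted p = 0.0309). The T-mDC samples also lay below all N-mDC samples, though not past the threshold (limma adjusted p = 0.234). Jak2 was lower in T-DCs (29.4 to 40.0 FPKM) than in N-mDCs (45.1 to 111, log2 difference -1.24 ± 0.36 (SE), limma adjusted p = 0.0487) and T-mDCs (95.5 to 156, log2 difference -1.95 ± 0.36 (SE), limma adjusted p = 0.0105), and Tyk2 was lower in T-DCs (13.0 to 22.5) than in T-mDCs (32.1 to 43.8, log2 difference -1.23 ± 0.26 (SE), limma adjusted p = 0.0178). Irf9 had 24.4, 24.0 and 29.1 FPKM in N-mDCs. It had 12.9, 22.5 and 31.6 in T-DCs and 12.7, 19.4 and 18.9 in T-mDCs and was not past the threshold.

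**Figure D5:**
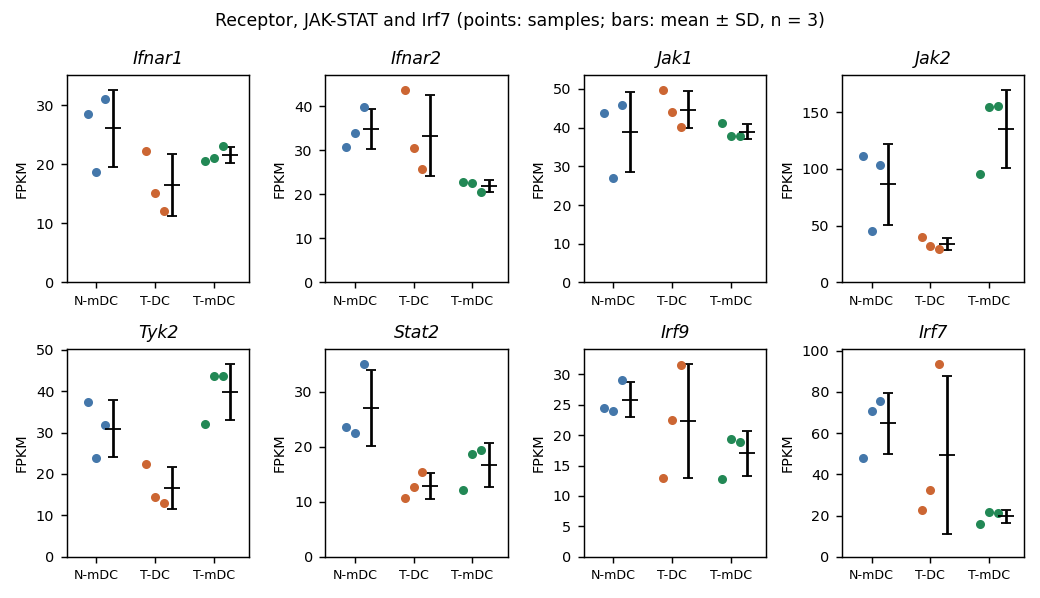
FPKM of the receptor chains, kinases and transcription factors above the interferon-stimulated genes, with a linear axis from 0. Points are samples and bars are mean ± SD (n = 3). Stat2 is below all N-mDC samples in T-DCs and T-mDCs, and Irf9 and Irf7 spread within T-DCs from 12.9 to 31.6 and from 22.6 to 93.5 FPKM.

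Irf7, the interferon-induced factor that amplifies interferon genes, had 48.0, 70.9 and 75.8 FPKM in N-mDCs. It had 22.6, 32.2 and 93.5 in T-DCs and 15.9, 21.7 and 21.4 in T-mDCs. The T-mDC samples lay below all others and T-DC sample 3 was the highest of the 9, as it was for Isg15, without a difference past the threshold (limma adjusted p = 0.117 for T-mDCs against N-mDCs). Of the 14 genes of interferon induction, Tlr3, the endosomal sensor of double-stranded RNA and a gene typical of cDC1s, was lower in T-DCs (0.708 to 3.47 FPKM) than in N-mDCs (5.02 to 6.32, log2 difference -1.33 ± 0.36 (SE), limma adjusted p = 0.038) and T-mDCs (12.2 to 22.1, log2 difference -2.83 ± 0.36 (SE), limma adjusted p = 0.00256). Tmem173 (STING) was lower in T-DCs compared with N-mDCs (log2 difference -1.11 ± 0.31 (SE), limma adjusted p = 0.0434) and T-mDCs (log2 difference -1.46 ± 0.31 (SE), limma adjusted p = 0.0188), and Tlr9 than in T-mDCs (log2 difference -1.85 ± 0.42 (SE), limma adjusted p = 0.0236). The kinase Ikbke was higher in T-DCs (8.46 to 20.03 FPKM) than in N-mDCs (0.979 to 2.23, log2 difference 2.54 ± 0.49 (SE), limma adjusted p = 0.011) and T-mDCs (0.488 to 3.80, log2 difference 2.79 ± 0.49 (SE), limma adjusted p = 0.00841). Mb21d1 (cGAS), the sensor of cytoplasmic DNA, was higher in T-mDCs (6.47 to 7.88 FPKM) than in N-mDCs (2.57 to 3.51, log2 difference 1.03 ± 0.18 (SE), limma adjusted p = 0.0272). The sum of 6 cDC1 markers was 21.6 to 102 FPKM in T-DCs, 203 to 299 in N-mDCs and 272 to 424 in T-mDCs, and its part in the T-DC values was not tested.

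Among 9 negative regulators, of which 8 were tested, Socs1, an inhibitor of JAK kinases, was lower in T-DCs (1.13 to 2.90 FPKM) than in N-mDCs (3.67 to 4.98, log2 difference -0.88 ± 0.24 (SE), limma adjusted p = 0.0408) and T-mDCs (4.24 to 5.96, log2 difference -1.13 ± 0.24 (SE), limma adjusted p = 0.0196). Socs3 and the phosphatase gene Ptpn11 were higher in T-DCs than in N-mDCs (log2 difference 1.34 ± 0.38 (SE), limma adjusted p = 0.0435, and log2 difference 0.85 ± 0.19 (SE), limma adjusted p = 0.0201), and Ptpn2, a phosphatase of JAK and STAT proteins, was lower in T-DCs than in T-mDCs (log2 difference -0.70 ± 0.17 (SE), limma adjusted p = 0.0306). Trex1 was listed at 0 in all samples. Of 26 relatives of members, 17 were tested, with 3 higher and 6 lower in T-DCs against N-mDCs (17.6% and 35.3%, beside 6.1% and 10.3% of all genes). Phf11a, Phf11b and Phf11c were lower in T-DCs than in both other groups, with log2 differences of -1.78, -1.09 and -1.26 from N-mDCs (limma adjusted p = 0.00527, 0.0157 and 0.0121) and -2.16, -1.58 and -1.18 from T-mDCs (limma adjusted p = 0.00274, 0.00396 and 0.0175), as was Phf11d against N-mDCs. Ifi27l2a was lower in T-DCs (37.4 to 130.2 FPKM, log2 difference -1.94 ± 0.48 (SE), limma adjusted p = 0.0299) and T-mDCs (32.1 to 58.7, log2 difference -2.37 ± 0.48 (SE), limma adjusted p = 0.0474) than in N-mDCs (157 to 338). Ifitm1 was lower in T-DCs than in T-mDCs (log2 difference -1.66 ± 0.30 (SE), limma adjusted p = 0.00953). Slfn14 was higher in T-DCs than in both other groups, with 1.40, 49.1 and 19.8 FPKM in T-DCs against at most 0.535 in N-mDCs and 0.400 in T-mDCs (log2 difference 3.33 ± 0.91 (SE), limma adjusted p = 0.0392, and log2 difference 3.55 ± 0.91 (SE), limma adjusted p = 0.0346). Its order in T-DCs was that of the erythroid marker sum, whose part was not tested. Slfn3 (log2 difference 1.35 ± 0.31 (SE), limma adjusted p = 0.0216) and Slfn9 (log2 difference 0.84 ± 0.23 (SE), limma adjusted p = 0.0417), the latter named after its values were seen, were the other higher relatives. Trim30d was lower against N-mDCs (log2 difference -1.11 ± 0.31 (SE), limma adjusted p = 0.0407).

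In a further list of 30 interferon-stimulated genes, all tested, 2 were higher and 9 lower in T-DCs against N-mDCs (6.67% and 30.0%, beside 6.1% and 10.3% of all genes). Against T-mDCs 3 were higher and 2 lower (10% and 6.67%, beside 5.44% and 8.79%). In T-mDCs against N-mDCs none was higher and 2 were lower (6.67%, beside 1.52%). Rbm43 was higher in T-DCs (11.03 to 27.4 FPKM) than in N-mDCs (4.81 to 6.37, log2 difference 1.49 ± 0.29 (SE), limma adjusted p = 0.0114) and T-mDCs (6.39 to 6.82, log2 difference 1.23 ± 0.29 (SE), limma adjusted p = 0.0259). Sp110, Trim12a and Mndal were lower in T-DCs compared with N-mDCs, with log2 differences of -1.004, -1.03 and -1.12 (limma adjusted p = 0.0131, 0.0138 and 0.0201). Ms4a4c was lower in T-DCs than in both other groups (log2 difference -0.90 ± 0.23 (SE), limma adjusted p = 0.0307 for N-mDCs and log2 difference -1.35 ± 0.23 (SE), limma adjusted p = 0.00703 for T-mDCs), and Ifi209 than in T-mDCs (log2 difference -1.25 ± 0.26 (SE), limma adjusted p = 0.0174). Trim25, the ligase that activates RIG-I, was lower in T-mDCs (19.5 to 22.2 FPKM) and T-DCs (27.7 to 34.2) than in N-mDCs (39.1 to 58.0), with log2 differences of -1.26 ± 0.20 (SE, limma adjusted p = 0.0192) and -0.73 ± 0.20 (SE, limma adjusted p = 0.0377). Named after their values were seen, further genes behind these counts were Shisa5, lower in T-mDCs than in N-mDCs (log2 difference -1.38 ± 0.24 (SE), limma adjusted p = 0.0267), and Ifi204, higher in T-DCs than in T-mDCs (log2 difference 1.69 ± 0.43 (SE), limma adjusted p = 0.0336). For genes other than the members, alternatives were not run.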

How the data were processed

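RNA of sorted DCs was sequenced by a service company following standard protocols, and the study's methods name no aligner, counter, annotation or test for these samples (not given in the sources used here); the submitters' processing notes name the build mm10. The authors deposited FPKM values for 54532 genes. The values times gene length gave whole reads for 100% of values within 0.01 of a read. FPKM was analysed as log2(FPKM + 1), which understates the change of low genes, for genes with at least 1 FPKM in 3 or more of the 9 samples. Groups came from the sample titles. All samples were fitted together with limma 3.58.1 under R 4.3.3 (moderated with eBayes and its trend option) with 3 contrasts and an F-test, Benjamini-Hochberg adjustment over 12746 genes and a threshold of 0.05. Intervals are 95% intervals of the fit. The procedure was tested on simulated data. At these depths 1 read on 1 kilobase was 0.0517 to 0.0659 FPKM, and intervals for low genes also hold counting error.

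All 46 members are named. Values in every sample are given for members past the threshold in any contrast and for the member with the highest mean FPKM of each role group. Other pathway genes are named when past the threshold, with at most 8 per list, besides Ifnb1, Ifnar1, Ifnar2, Stat2, Irf9 and Irf7. Some genes that this rule names are not reported here. The members, lists and tests were chosen with earlier results of these data known. Alternatives were other pseudocounts (0.1), filters (none, or 5 FPKM), scalings (TPM, median-of-ratios, quantile), only the groups compared, no variance trend, array weights, voom on the recovered reads, averaged T-mDC samples 2 and 3, an erythroid covariate, a replicate block and leaving out each sample. Leaving out T-DC samples 2 and 3 was added after seeing the data. Promoter windows came from RefSeq, and shared 75-base windows and overlaps from GENCODE transcripts. Python 3.11.15 drew the figures with matplotlib 3.10.9.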

Additional observations from a re-analysis of the deposited data

How the results depend on the processing

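Leaving out each sample in turn gave 0 to 8 members higher and 4 to 11 lower for T-DCs against N-mDCs, 1 to 13 higher and 1 to 4 lower for T-DCs against T-mDCs, 0 to 11 lower for T-mDCs against N-mDCs (0 to 0 higher) and 7 to 26 by F-test. Of all 12746 genes the same fits called 980 to 5030, 541 to 4475, 23 to 1022 and 1069 to 5374 in that order, both directions together. Array weights, with which T-DC sample 2 received a weight of 46.6, gave 8 higher and 25 lower, 18 higher and 15 lower, 1 higher and 25 lower, and 40 by F-test. With these weights 8485, 9923, 3841 and 10755 of all genes were called in that order. Of the other settings, T-DCs against N-mDCs had 1 higher with a pseudocount of 0.1, median-of-ratios scaling or the erythroid covariate. They had 0 higher with no filter, TPM, quantile normalization, only the groups compared, voom or averaged T-mDC samples 2 and 3. In these settings 158 to 756 of all genes tested were higher. With the erythroid covariate 4 members were lower, beside 604 of all genes called in either direction. T-DCs against T-mDCs had 1 higher with no filter, only the groups compared or averaged T-mDC samples 2 and 3, beside 311, 252 and 85 of all genes tested. With voom 2 were higher and 4 lower, beside 1921 of all genes called, 476 of them higher. Averaged T-mDC samples 2 and 3 gave 1 lower, beside 540 of all genes called in either direction. The erythroid covariate gave 0 higher and 0 lower, and 0 of all genes were called under it. T-mDCs against N-mDCs had 2 lower with no filter or TPM, 3 with the stricter filter or the erythroid covariate, 17 with only the groups compared or without T-DC samples 2 and 3 and 0 with averaged T-mDC samples 2 and 3. The F-test gave 7 with that mean and 22 without T-DC samples 2 and 3. The median difference of T-DCs from T-mDCs reversed from 0.28 to -0.0098 with the erythroid covariate, -0.22 without T-DC samples 2 and 3 and -0.003 without T-DC sample 3 (leaving out 1 sample, -0.003 to 0.5675). TPM moved the median of all genes from 0.07 to -0.23 for T-DCs against T-mDCs and from 0.03 to 0.23 for T-mDCs against N-mDCs, so TPM differences are relative to those. Replicate numbers did not pair the samples (correlations of deviations between same-numbered samples from -0.47 to 0.27). With the replicate block the counts were 0 higher and 6 lower, 4 and 2, 0 and 2, and 10 by F-test. It called 1378, 1253, 78 and 1337 of all 12746 genes in that order. Except where fewer samples or genes entered by construction, the cause of these changes was not tested. Depth limits genes such as Ifi44 and the interferons, where a few reads set the value.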
